A study of Mus musculus with 6 samples.

Results

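The nucleotide synthesis enzymes are a set of 33 genes, picked by symbol from the table of 55401 genes for immortalised mouse embryo fibroblasts (iMEF). All 33 were found there once, and all 33 had an adjusted p-value, as did 16773 genes in all, which are called tested genes here. The set was divided by role into 11 deoxynucleotide enzymes, 7 pyrimidine enzymes, 12 purine enzymes and 3 enzymes of shared supply. After 24 h of dTAG-13, 16 of the 33 transcripts were lower, 1 was higher and the other 16 missed the threshold. Of the 8236 tested genes with a mean of at least 100 normalized reads, as all members had, 18.1% were lower and 9.49% higher.

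The samples were cells with dTAG-13 for 24 h (3 libraries in the labels) and cells without dTAG (3 libraries), both listed as iMEF. All of them carry floxed Ash2l alleles with an exon deleted by a Cre-ER recombinase under the hybrid CAGG promoter, and a lentiviral FKBP12-tagged human ASH2L. The study's legend names a single cell clone, NG3, and fewer replicates than the labels. dTAG-13 ties the tagged ASH2L, a core subunit of the KMT2 methyltransferases of histone H3 lysine 4, to a ubiquitin ligase and so causes its degradation, and the question was which transcripts had changed a day later. Treated cells without the tagged protein were not analysed here, so effects of the compound and of ASH2L loss on RNA cannot be told apart. The study counted control iMEF cells with dTAG-13 and reports no effect on their proliferation. The time of 24 h comes from sample titles and the time point label, while the treatment protocol in the labels lists shorter times only.

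Nucleotides are made from small precursors (de novo synthesis) or from recycled bases and nucleosides (salvage). Ribonucleotide reductase then turns ribonucleotides into deoxynucleotides, the building blocks of DNA, and thymidylate is made in a step that uses folate. In dividing cells the enzymes of deoxynucleotide supply are made mostly around S phase, while other enzymes, such as the mitochondrial thymidine kinase, are kept through the cell cycle. A sum of RNA over all cells cannot tell fewer cells in S phase from less RNA per cell.

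The table gives 1 row per gene with pooled values. A level here is the mean normalized read count over both groups, and a change is the shrunken log2 fold change, treated over untreated, with its standard error (SE). Values per library were not given, so neither the values of single samples nor their overlap between the groups can be shown. Levels of the members ran from 106 normalized reads for Tk2 to 4232 for Paics, and their SE from 0.16 to 0.30 on the log2 scale, against a median SE of 0.26 over all tested genes. A gene was called changed at an adjusted p under 0.05 in the authors' DESeq2 test. Values of 8923 genes with a mean of up to 3 normalized reads were all whole-number combinations of 5 read values, as 5 libraries would give, while the labels list 3 and 3. Of the fibroblast markers, Col1a2, Col1a1, Vim and Fn1 had levels of 109792, 86116, 36949 and 25340 normalized reads, while Dcn and Lum had 5.68 and 1.73. Markers of blood, endothelial, epithelial, muscle and neural cells summed to 26.1, 5.55, 7.32, 6.12 and 72.4 normalized reads, most of the last from Tubb3. Mouse Ash2l had a log2 fold change of −0.12 ± 0.20 (SE) and an adjusted p of 0.724. Whether reads of the human transgene were counted for it was not examined, and RNA does not report on the degraded protein.

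Among all tested genes 19.9% were called, 12.5% as lower and 7.45% as higher. Strongly expressed genes were called more often, and since every member had a mean of at least 100 normalized reads, the 8236 tested genes with such a mean are the closer background, with 18.1% lower and 9.49% higher. Against this, 48.5% of the members were lower and 3.03% higher. The median log2 fold change of the members was −0.43, compared to −0.047 over the genes with a mean of at least 100 and −0.015 over all tested genes. A log2 fold change below 0 was found for 28 of 33 members, which is 84.8%, and for 55.2% of the genes with a mean of at least 100. The members share pathways and are not independent of each other, and no test of the set was run. At an unadjusted p under 0.05 in the DESeq2 test, 24 members were lower and 1 was higher, against 24.6% lower and 14.2% higher among the genes with a mean of at least 100, and 17.9% and 12% among all tested genes. After recentring on a list of 15 housekeeping genes, whose median was −0.18, the calls over all tested genes were 1497 lower and 2264 higher, against 2093 and 1250 as deposited, and the members had 14 lower and 1 higher.

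**Figure D1:**
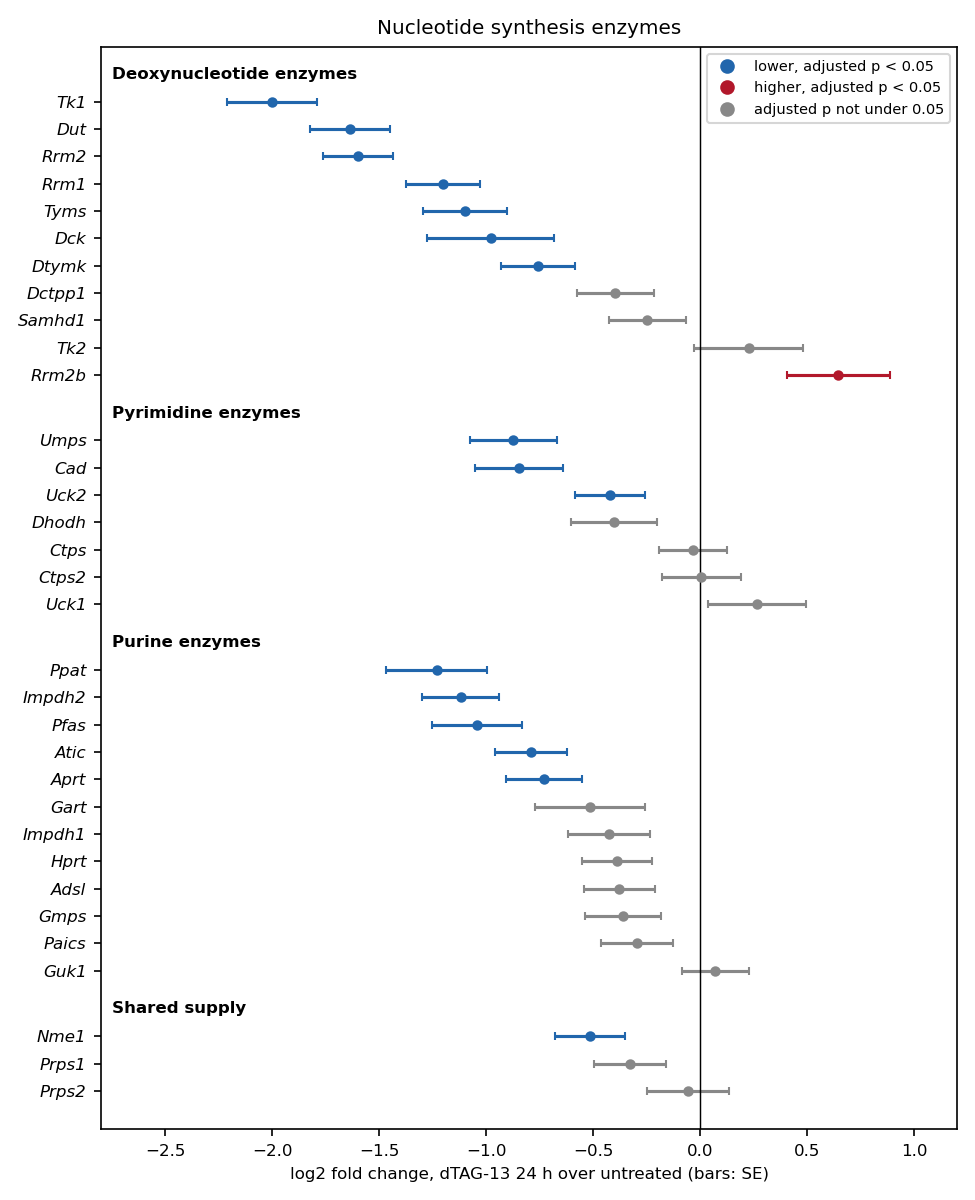
Log2 fold change of each of the 33 enzymes (horizontal axis, dTAG-13 at 24 h over untreated) with its SE as bars, grouped by role and ordered by value. Blue points passed as lower, the red point (Rrm2b) passed as higher, and grey points did not pass; the 5 most negative values all belong to deoxynucleotide enzymes or Ppat.

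The promoters shown first are those of the 2 main subunits of ribonucleotide reductase, Rrm1 and Rrm2, both of which fell. RefSeq promoter windows on GRCm38.p6 (250 bases before to 50 bases after the annotated start) were matched for 30 of 33 members, and Rrm2b, Dhodh and Pfas had none in the table. Capitals mark CCAAT, a box bound by the factor NF-Y, searched as these letters on both strands. It lies in a window of 12 of the 30 members (40%) and of 41.1% of all 27025 genes with a window, a similar share.
Rrm1, chr7:102441445-102441744, plus strand: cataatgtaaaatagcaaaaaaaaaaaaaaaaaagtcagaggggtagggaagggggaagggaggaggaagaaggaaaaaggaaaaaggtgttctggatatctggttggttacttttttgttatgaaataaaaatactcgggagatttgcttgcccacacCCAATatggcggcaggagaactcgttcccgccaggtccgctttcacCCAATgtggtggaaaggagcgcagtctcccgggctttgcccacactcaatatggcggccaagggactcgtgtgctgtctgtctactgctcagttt
Rrm2, chr12:24708004-24708303, plus strand: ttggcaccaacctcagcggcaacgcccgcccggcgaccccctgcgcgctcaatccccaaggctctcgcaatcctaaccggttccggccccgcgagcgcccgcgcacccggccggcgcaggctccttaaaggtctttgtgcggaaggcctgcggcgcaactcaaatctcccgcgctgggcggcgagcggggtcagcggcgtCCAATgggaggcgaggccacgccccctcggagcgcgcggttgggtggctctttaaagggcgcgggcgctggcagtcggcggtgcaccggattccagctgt

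The deoxynucleotide enzymes held the largest falls: 7 of 11 members fell and 1 rose, with a median log2 fold change of −0.98. Among genes with a mean of at least 100, 18.1% were lower and 9.49% higher. The share that rose, 9.09%, was thus near the background. Ribonucleotide reductase is built from a large subunit, Rrm1, and a small one, either Rrm2, which is made in S phase, or Rrm2b, which p53 can induce and which serves cells outside S phase. Rrm2 (ENSMUSG00000020649.11, GRCm38 chromosome 12, 24708241 to 24714146) had a mean level of 703 normalized reads and a log2 fold change of −1.60 ± 0.16 (SE), so that it was 3.03 times lower in dTAG-13-treated than in untreated cells (adjusted p = 1.01e-21). Rrm1 (ENSMUSG00000030978.10, chromosome 7, 102441695 to 102469771) had a mean level of 1013 normalized reads and a log2 fold change of −1.20 ± 0.17 (adjusted p = 2.53e-11). Rrm2b (ENSMUSG00000022292.16, chromosome 15, 37923952 to 37961318) was the member that rose, with a mean level of 167 normalized reads and a log2 fold change of 0.65 ± 0.24, which is 1.56-fold higher (adjusted p = 0.0141). The 2 small subunits therefore went in opposite directions. Their log2 fold changes differed by −2.25 ± 0.29 (Rrm2 minus Rrm2b, 95% interval −2.81 to −1.68). The rise of Rrm2b is the less firm of the 2, since its adjusted p was 0.0506 when the shrunken value was tested against its own SE. Its span also holds the processed pseudogene Gm3362 on the same strand, which had a mean level of 15.7 normalized reads, so reads there may be shared. Rrm2 and Rrm1 differed by −0.40 ± 0.24, with an interval of −0.86 to 0.07 that includes 0.

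Thymidine nucleotides come from de novo methylation by thymidylate synthase (Tyms) or from salvage by thymidine kinase (Tk1 in the cytosol, Tk2 in mitochondria), and both routes then pass through thymidylate kinase (Dtymk). Tk1 (ENSMUSG00000025574.13, chromosome 11, 117815526 to 117826092) had the lowest log2 fold change of all 33 members, −2.0 ± 0.21, at a mean level of 546 normalized reads (adjusted p = 4.31e-20). Tk2 had a log2 fold change of 0.23 ± 0.25 and did not pass (adjusted p = 0.523). The 2 kinases differed by −2.23 ± 0.33 on the log2 scale (Tk1 minus Tk2, 95% interval −2.88 to −1.58), so the cytosolic form moved away from the mitochondrial one. Tyms fell by 1.10 ± 0.20 on the log2 scale (adjusted p = 8.95e-08) and Dtymk by 0.76 ± 0.17 (adjusted p = 4.52e-05). All 3 enzymes of the cytosolic thymidylate route were thus lower.

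Dut, the dUTPase that keeps uracil out of DNA and makes the precursor of thymidylate, was next to Tk1 in size. Dut (ENSMUSG00000027203.15, chromosome 2, 125247190 to 125258608) had a mean level of 895 normalized reads and a log2 fold change of −1.64 ± 0.19, or 3.11 times lower (adjusted p = 3.41e-17). Dck, the deoxycytidine kinase of salvage, had a log2 fold change of −0.98 ± 0.30 with the widest SE of the members (adjusted p = 0.00146). Dctpp1, which cleaves dCTP and its modified forms, was at −0.40 ± 0.18 and did not pass (adjusted p = 0.0694). Samhd1, which hydrolyses deoxynucleoside triphosphates, was at −0.25 ± 0.18 and did not pass either (adjusted p = 0.33). The intervals of these 2 log2 fold changes were −0.75 to −0.04 and −0.60 to 0.11, so that falls of moderate size lie within both.

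**Figure D2:**
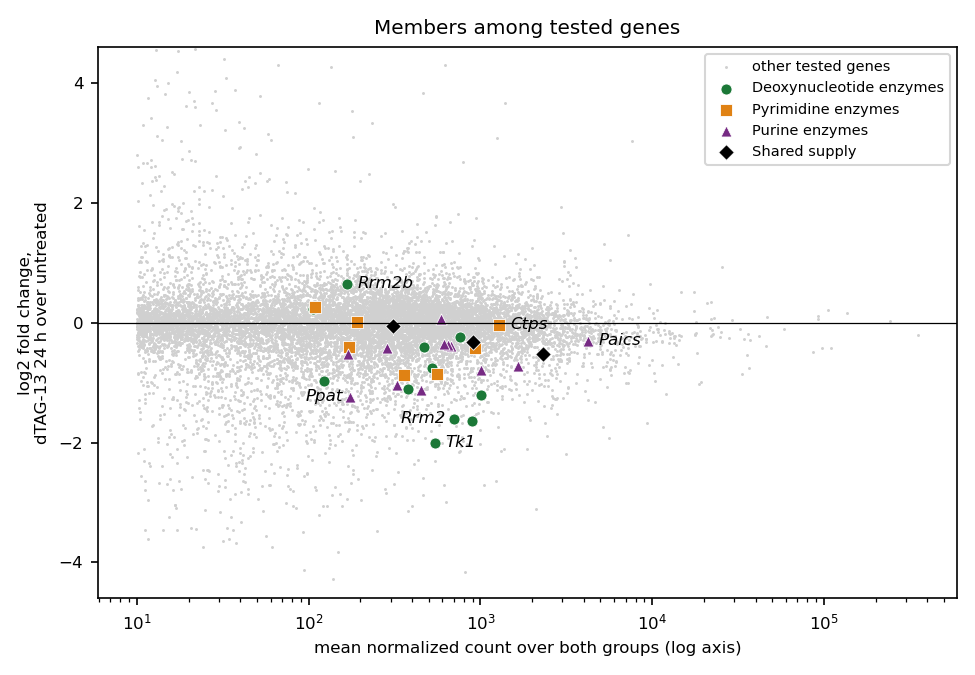
Log2 fold change (vertical axis, dTAG-13 at 24 h over untreated) against the mean normalized count over both groups (horizontal log axis) for 12601 tested genes with a mean of at least 10 (grey) and the 33 members by role. A further 19 genes lie beyond the drawn range of 4.6 on either side; Tk1, Dut and Rrm2 form the lower edge of the members and Rrm2b the upper edge.

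Pyrimidine enzymes moved less, with 3 of 7 lower, 0 higher and a median log2 fold change of −0.40. By the same calls, 18.1% of genes with a mean of at least 100 were lower and 9.49% higher. At an unadjusted p under 0.05 in the DESeq2 test the counts were 4 and 0, beside the 24.6% and 14.2% of genes with a mean of at least 100. De novo synthesis of uridine monophosphate runs from Cad, which holds the first activities of the route in 1 protein, through Dhodh in the mitochondrial membrane to Umps. Cad, at a mean level of 559 normalized reads, fell by 0.85 ± 0.21 on the log2 scale (adjusted p = 0.000103) and Umps, at 361, by 0.87 ± 0.20 (adjusted p = 5.43e-05), while Dhodh had −0.40 ± 0.20 and did not pass (adjusted p = 0.101). The first and last enzymes of the route were thus lower by nearly the same amount, 1.80 and 1.83 times.

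The CTP synthases, which turn UTP into CTP, had log2 fold changes near 0, as did Prps2 (−0.06) and Guk1 (0.07). Ctps had a log2 fold change of −0.03 ± 0.16 at a mean level of 1290 normalized reads (adjusted p = 0.92), with an interval of −0.34 to 0.27. Ctps2 had 0.01 ± 0.19 (adjusted p = 0.991) and an interval of −0.36 to 0.37. The 2 synthases differed by −0.04 ± 0.24, and the interval of −0.52 to 0.44 leaves room for a difference of moderate size. The uridine-cytidine kinases of salvage were split. Uck2 was called lower at −0.42 ± 0.16 (adjusted p = 0.032), but not after recentring of the fold changes on genes with a mean of at least 100 (adjusted p = 0.0617). Uck1 had 0.27 ± 0.23 (adjusted p = 0.394). The difference of Uck2 minus Uck1 was −0.69 ± 0.28, with a 95% interval of −1.24 to −0.13.

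Purine enzymes held 5 lower and 0 higher of 12, beside the 18.1% and 9.49% of genes with a mean of at least 100. The median log2 fold change of these enzymes was −0.47. At an unadjusted p under 0.05 in the DESeq2 test the counts were 10 and 0, beside the same 24.6% and 14.2%. Of the 6 genes for the de novo route to inosine monophosphate, 3 fell. Ppat, the amidotransferase that commits the route, fell by 1.23 ± 0.24 on the log2 scale at a mean level of 174 normalized reads (ENSMUSG00000029246.14, chromosome 5, 76913249 to 76951578; adjusted p = 5.08e-07). Pfas, a middle step, had a level of 327 normalized reads and −1.04 ± 0.21 (adjusted p = 1.98e-06), and Atic, which closes the ring and holds the last 2 activities in 1 protein, had a level of 1013 and −0.79 ± 0.17 (adjusted p = 1.29e-05). The other genes of the route had values on the same side that did not pass: Gart −0.52 ± 0.26, Adsl −0.38 ± 0.17 and Paics −0.30 ± 0.17, with adjusted p-values of 0.0743, 0.0609 and 0.18. The route as a whole thus had values from −1.23 to −0.30.

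Ppat and Paics are neighbours on opposite strands whose annotated 5′ ends overlap by 272 bases, with Paics (ENSMUSG00000029247.17) on chromosome 5 from 76951307 to 76967509. Their log2 fold changes differed by −0.93 ± 0.29 (Ppat minus Paics, 95% interval −1.50 to −0.37). Paics also had the highest level of the members. Whether the counting used strand was not given in the sources used here, so reads in the shared stretch cannot be assigned with certainty.

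From inosine monophosphate, Impdh1 and Impdh2 open the branch to guanine nucleotides, Gmps completes it and Guk1 adds the next phosphate. Impdh2, the form that proliferating cells use most, fell by 1.12 ± 0.18 on the log2 scale, or 2.17 times (ENSMUSG00000062867.13, chromosome 9, 108560286 to 108565584; adjusted p = 1.78e-09). Impdh1 had −0.43 ± 0.19 and did not pass (adjusted p = 0.0638). The difference of Impdh2 minus Impdh1 was −0.69 ± 0.26 (95% interval −1.21 to −0.18). The copy Impdh2-ps also had reads, with a mean level of 37.6 and a log2 fold change of −1.03 ± 0.43, and reads of near-identical copies can be shared, so the value of Impdh2 is uncertain to that degree. Gmps had −0.36 ± 0.18 (adjusted p = 0.1), and Guk1 had 0.07 ± 0.16 (adjusted p = 0.821) with an interval of −0.24 to 0.38. Values along the branch were thus −1.12 and −0.43 for the forms of the first step, −0.36 for Gmps and 0.07 for Guk1. A difference between the steps was not tested.

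The salvage transferases that rebuild nucleotides from free bases gave 1 call. Aprt, which recycles adenine, fell by 0.73 ± 0.18 on the log2 scale at a mean level of 1659 normalized reads (adjusted p = 0.00017). Hprt, which recycles hypoxanthine and guanine and is often used as a reference gene, had −0.39 ± 0.16 (adjusted p = 0.0517). Hprt lay just outside the threshold, together with Adsl, Impdh1, Dctpp1 and Gart, which had adjusted p-values up to 0.0743. Hprt and Adsl passed as lower when genes with a mean under 10 were left out of the adjustment (adjusted p = 0.0414 and 0.049).

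The 3 genes of shared supply had a median log2 fold change of −0.33, the nearest to 0 of the 4 roles, with 1 lower and 0 higher. Among genes with a mean of at least 100, 18.1% were lower and 9.49% higher. Prps1 and Prps2 make phosphoribosyl pyrophosphate, the ribose donor of both routes and of salvage, and Nme1 is a nucleoside diphosphate kinase that makes the triphosphates. Nme1 fell by 0.52 ± 0.16 on the log2 scale at a mean level of 2326 normalized reads (adjusted p = 0.00593), but did not pass after recentring on the housekeeping list (adjusted p = 0.087). Prps1 had −0.33 ± 0.17 (adjusted p = 0.129) and Prps2 had −0.06 ± 0.19 (adjusted p = 0.882). Their difference was −0.27 ± 0.26, with an interval of −0.78 to 0.23.

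**Figure D3:**
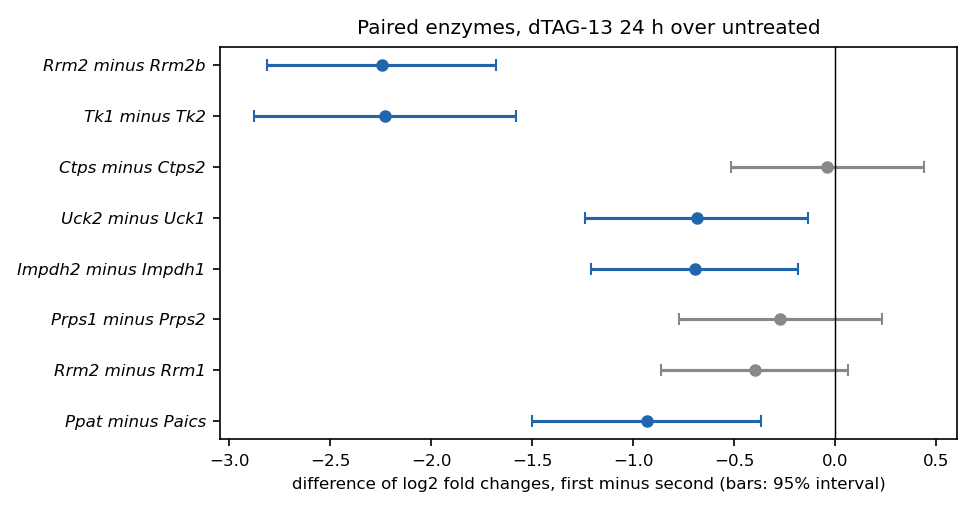
Difference between the log2 fold changes of paired enzymes (first gene minus second, horizontal axis) with 95% intervals as bars, the errors of both genes taken as independent. Blue intervals exclude 0 and grey intervals include it; Rrm2 against Rrm2b (−2.25) and Tk1 against Tk2 (−2.23) lie farthest from 0.

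Of 8 pairs, chosen with earlier results of these data known, 5 had an interval that excludes 0. In the 4 such isoenzyme pairs, Rrm2, Tk1, Uck2 and Impdh2 had lower values than Rrm2b, Tk2, Uck1 and Impdh1. The shared sign of these differences follows from which gene was named first and is not a result. The Rrm2 and Rrm1 pair changed sides with the assumed correlation of errors: at 0.5 the SE was 0.17 and the interval excluded 0.

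The medians of the roles were −0.98 for deoxynucleotide, −0.40 for pyrimidine and −0.47 for purine enzymes, but the ranges overlapped, −2.0 to 0.65, −0.87 to 0.27 and −1.23 to 0.07. The difference between roles was not tested. The 22 members outside the deoxynucleotide group had 9 lower, 0 higher and a median of −0.41. Genes with a mean of at least 100 had 18.1% lower and 9.49% higher. At an unadjusted p under 0.05 in the DESeq2 test 16 of the 22 were lower, where the genes with a mean of at least 100 had 24.6%. Of the 8 members lower by more than 1 on the log2 scale, 5 were deoxynucleotide enzymes (Tk1, Dut, Rrm2, Rrm1 and Tyms). The other 3 were purine enzymes (Ppat, Impdh2 and Pfas). Called falls of that size were found for 448 of the 8236 genes with a mean of at least 100. For comparison, a list of 24 replication genes (licensing factors, helicase subunits, polymerases and Pcna) had 19 lower, 0 higher and a median of −1.11, beside the 7 lower of 11 and the median of −0.98 of the deoxynucleotide enzymes. Of all tested genes, 12.5% were called lower and 7.45% higher. At an unadjusted p under 0.05 in the DESeq2 test the replication list had 21 lower and 0 higher, against 17.9% and 12% of all tested genes.

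The hexamer CACGTG, an E-box that MYC and related factors bind, was present in a promoter window of 6 of the 30 members with one (20%), against 8.09% of all 27025 genes and 12.4% of the 6574 tested genes with a window and a mean of at least 100 normalized reads. These 6 are shown because they fall in all roles but the pyrimidine one, and 5 of them fell (Tyms, Dtymk, Impdh2, Atic and Nme1), while Paics did not pass. The hexamer is its own reverse complement, and capitals mark it within 20 bases of either flank on the gene's strand.
Tyms, chr5:30073661-30073706, minus strand: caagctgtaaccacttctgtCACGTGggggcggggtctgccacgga
Dtymk, chr1:93802057-93802102, minus strand: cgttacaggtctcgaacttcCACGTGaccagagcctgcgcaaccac
Impdh2, chr9:108560306-108560351, plus strand: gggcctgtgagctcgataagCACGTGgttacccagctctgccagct
Atic, chr1:71557129-71557174, plus strand: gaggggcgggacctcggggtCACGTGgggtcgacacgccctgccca
Nme1, chr11:93968265-93968310, minus strand: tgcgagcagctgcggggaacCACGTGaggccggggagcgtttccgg
Paics, chr5:76951079-76951124, plus strand: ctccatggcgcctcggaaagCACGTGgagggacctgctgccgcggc
Relative to the annotated start the hexamer began at −61, −148, −110, −7, −18 and −203 in this order. Nme1 has a further CACGTG in the window of another annotated start, at −29 from that start, which is not shown. Among the genes with a mean of at least 100, 21.5% of 813 genes with the hexamer and 17.9% of those without it were lower.

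E2F motifs were searched as TTTCCCGC, TTTCGCGC, TTTGCCGC and TTTGGCGC on both strands. They were found in 2 of the 30 members, Ppat and Prps2 (6.67%), against 2.61% of all genes with a window and 5.23% of those with a mean of at least 100. None of these letters was in the windows of Rrm1, Rrm2, Tk1, Tyms or Dut, which says only that these exact letters are not in these 300 bases. Near matches were not counted: the Rrm1 window, for example, holds gttcccgc, which differs from TTTCCCGC in its first base. Capitals mark the matches, and in Ppat both are on the opposite strand.
Ppat, chr5:76951709-76951809, minus strand: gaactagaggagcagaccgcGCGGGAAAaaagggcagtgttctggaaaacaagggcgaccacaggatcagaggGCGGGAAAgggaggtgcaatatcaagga
Prps2, chrX:167382700-167382736, minus strand: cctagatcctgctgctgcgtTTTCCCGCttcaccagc
Of these 2 genes, Ppat fell and Prps2 did not pass. Among the genes with a mean of at least 100, 29.1% of 344 genes with an E2F motif and 17.7% of those without one were lower. The letters TTTGAA, a core of the CHR element of cell cycle genes, were in 6 of the 30 members (20%), in 20.2% of all genes and in 13.9% of those with a mean of at least 100. Among the last, 23.5% of the genes with the letters and 17.5% of those without them were lower.

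Other genes of nucleotide metabolism were taken from a list of 71, of which 62 were tested, with 24 lower, 2 higher and a median log2 fold change of −0.25. The shares were 38.7% lower and 3.23% higher, against 12.5% and 7.45% of all tested genes. Of the 62 genes, 40 had a mean of at least 100 normalized reads, where the background was 18.1% lower and 9.49% higher. Folate one-carbon metabolism, which feeds thymidylate and purine synthesis, had 6 of 10 lower, 1 higher and a median of −0.86. In it, the mitochondrial serine hydroxymethyltransferase Shmt2 fell by 1.52 ± 0.16 on the log2 scale (adjusted p = 2.35e-20), Mthfd1l by 1.38 ± 0.19 and Mthfd2 by 0.98 ± 0.15. Mthfd2l, a relative of Mthfd2, rose by 0.73 ± 0.35 (adjusted p = 0.0409). No gene of the whole list was higher at an adjusted p under 0.01, or when shrunken values were tested against their own SE. The deoxycytidylate deaminase Dctd, which supplies the substrate of Tyms, fell by 1.88 ± 0.27 (adjusted p = 1.16e-11). The deoxynucleotide and thymidylate genes of this list that Dctd belongs to had 2 of 6 lower, 0 higher and a median of −0.00039. Among those that did not pass, Nt5m, a mitochondrial nucleotidase, had 0.40 ± 0.24 and Dguok, the mitochondrial deoxyguanosine kinase, had 0.28 ± 0.18.

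The equilibrative nucleoside transporter Slc29a1, which carries nucleosides for salvage into the cell, fell by 1.92 ± 0.19 on the log2 scale (adjusted p = 2.6e-23), the smallest adjusted p of the list. Nucleotide kinases had 5 of 10 lower and 0 higher. Of these 10 kinases, 7 had a mean of at least 100, a background with 18.1% lower and 9.49% higher. The genes of ribose supply, by contrast, had 1 of 8 lower and 0 higher with a median of −0.23. That is 12.5% lower and rests on 1 gene. All tested genes had 12.5% lower and 7.45% higher. Of the 8 genes of ribose supply, 7 had a mean of at least 100, where the share lower was 18.1%. Rpia was the gene that fell (adjusted p = 0.0389). Enzymes of pyrimidine salvage and breakdown had 1 lower and 1 higher of 6, the uridine phosphorylases Upp1 at −2.57 ± 0.92 and Upp2 at 0.88 ± 0.37. Upp1 had a mean level of only 10.6 normalized reads and Upp2 of 50.6. The other tested genes lay at values between −2.08 ± 0.43 for the adenylate kinase Ak5 and 0.49 ± 0.42 for Gmpr2, whose value did not pass.

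**Figure D4:**
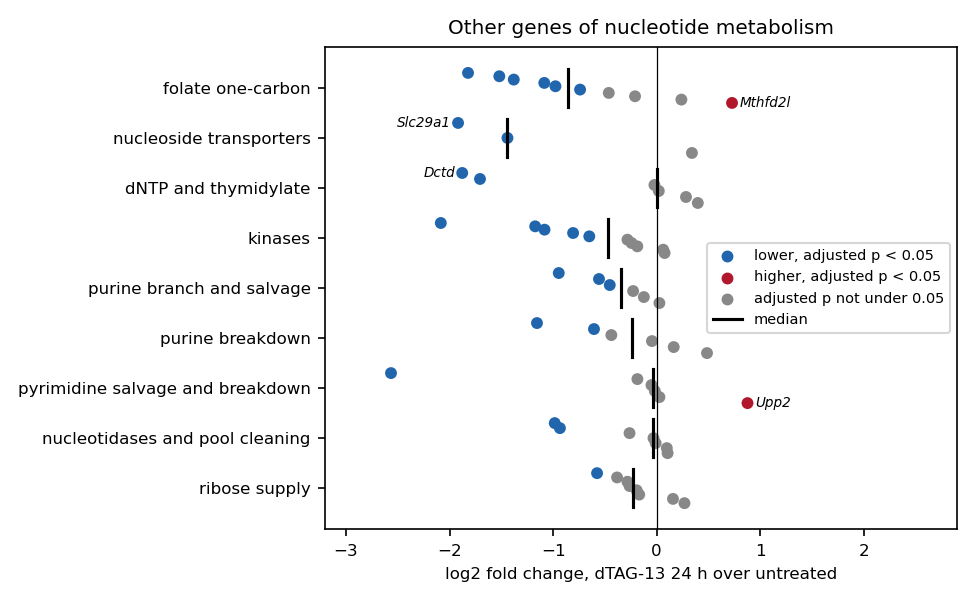
Log2 fold change (horizontal axis, dTAG-13 at 24 h over untreated) of 62 tested genes of nucleotide metabolism that are not among the 33 enzymes, by group. Each point is a gene, blue for lower, red for higher and grey for not passing, and vertical bars are group medians, which run from −1.44 for nucleoside transporters (3 genes) to near 0 for 3 groups.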

How the data were processed

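RNA of iMEF cells with dTAG-13 for 24 h and without it was sequenced. Per the methods of the study, the authors ran Trim Galore for trimming, STAR for alignment to mm10 and featureCounts for counting per gene, and scaled the counts to ERCC spike-ins. The kit is given as a stranded one for total RNA in the labels but as one for 3′ ends of mRNA in the methods, so strandedness is uncertain. The deposited signal is a mean normalized count over the libraries of both groups. The deposited log2 fold changes were shrunken by the authors with apeglm, and their SE is on the log2 scale. The deposited p-values are those of the authors' 2-sided DESeq2 test, with Benjamini-Hochberg adjusted values over 16773 genes. Because no file used here holds values per library, no group test was fitted here, depth per library is unknown, and fold changes, SEs and p-values of genes are the authors' own. Whether libraries came from separate cultures is not given in the sources used here, so p-values measure only the spread between these libraries, which may be technical. The separate sheets of lower and higher genes were not used.

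Members, lists and pairs were chosen with earlier results of these data known. All 33 members are accounted for. Full statistics are given for the 4 called members with the smallest p in each role and for pairs. From the list of other nucleotide genes the 6 lower and up to 6 higher called genes with the smallest p are named, except for 1 that is not reported here. Ak5, Dguok, Gmpr2, Nt5m, Rpia and Upp1 were added after their values were seen. Differences between genes took their errors as independent, with normal 95% intervals. Alternatives were 2 other zero points, other filters, a threshold of 0.01 and a normal test of the shrunken values. For the zero points, the centre over the SE was subtracted from the signed z of the deposited p. This step was tried on simulated independent genes with the true centre given, so error in an estimated centre was not tested. Positions are from GENCODE M21 (GRCm38) and promoter windows from RefSeq (GRCm38.p6). Python 3.11.15, numpy 2.4.6, pandas 2.3.3, scipy 1.17.1 and matplotlib 3.10.9 were used.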

Additional observations from a re-analysis of the deposited data

How the results depend on the processing

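Centring on the genes with a mean of at least 100 (−0.047) and on 15 housekeeping genes (−0.18) gave 15 and 14 lower members against 16, and over all genes the share of lower calls moved to 56.8% and 39.8%, against 62.6% as deposited. The median of the members moved to −0.24, that of purine enzymes to −0.29 and that of shared supply to −0.15 on the housekeeping centre, where 0 genes of shared supply were lower and 6 other nucleotide genes were higher. Without a filter on low means 1 of those other genes was higher. At an adjusted p under 0.01, and with the normal test of shrunken values, 0 members, 0 deoxynucleotide enzymes and 0 other nucleotide genes were higher. The Rrm2 minus Rrm1 difference of −0.40 had an interval that excludes 0 at an error correlation of 0.5. Over these settings the members lower ran from 14 to 18, the deoxynucleotide enzymes stayed at 7 lower, and no called member changed sign. Ctps changed sign on both centres and Prps2 on the housekeeping centre, neither of them called in any setting. Uck2 was called in 3 of the 7 settings, the deposited one included.

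No paired analysis was possible because the table holds no values per library, and leaving out a library was not run for the same reason. Depth per library is unknown, and the widest SEs of members were those of Dck (0.30), Gart (0.26), Tk2 (0.25), Rrm2b (0.24), Ppat (0.24) and Uck1 (0.23).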
